A study of Homo sapiens with 16 samples.

Results

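Long intergenic noncoding RNAs whose gene symbol is LINC followed by a number were examined in HUH6, a long-established cell line from a human hepatoblastoma, a liver tumour of childhood. The genes were chosen by 2 criteria, a symbol of that form in GENCODE release 29 and at least 400 raw counts summed over all 16 libraries. Of 1886 such genes in the table, 132 met both criteria, 1001 had counts below the criterion and 753 had none, among 58735 genes in all. The 132 genes held 360602 of the 401117 counts of all LINC-numbered genes (89.9%), and 0.0837% of the 430693497 counts of the table. The sum that chose them is a measured value, so the abundance of these genes is a description. For 17 of the 132 genes, 8 higher in hypoxia and 9 higher in normoxia, the counts of the lower oxygen condition, if doubled, would have missed the criterion. These 17 passed through the condition in which they were high, so their oxygen values below are given as a description, with no p. LINC02387, LINC01237 and LINC02026 lay just inside the criterion with 404, 402 and 401 counts, and LINC00216, LINC01273 and LINC01508 just outside it with 393, 372 and 370.

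The study crossed oxygen with SLC-0111, a compound (also named U-104 in the labels) that inhibits the carbonic anhydrases CAIX and CAXII, per those labels. The 4 groups were normoxia with DMSO (the solvent control), normoxia with 100 µM SLC-0111, hypoxia (1% oxygen) with DMSO, and hypoxia with 100 µM SLC-0111, each over 48 h in the same line. Each group had 4 libraries, described by the submitters as technical replicates, so the p-values below measure the spread between such libraries and nothing says that separate cultures were used. Both the normoxia SLC-0111 and the hypoxia DMSO group hold 1 library that carries a column name whose replicate number does not match the labels, and these are called unnumbered.

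Long intergenic noncoding RNAs are transcripts that are spliced and processed much like messenger RNAs but are not known to be translated into a long protein. Some act where they are made, on a neighbouring gene, some act elsewhere as scaffolds or as partners of proteins and microRNAs, some give rise to microRNAs or short peptides, and for most no role is known. A LINC number is a registry name and implies no shared function. Low oxygen stabilises hypoxia-inducible factors, which bind the letters ACGTG or GCGTG in regulatory DNA and raise glycolytic and other genes, and several noncoding RNAs are known to follow oxygen as well.

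Hypoxia-inducible factor letters were looked up in promoters because some of these genes were nearly silent in normoxia and others were lower at low oxygen. RefSeq (GRCh38.p14) holds a promoter, from 250 bases before to 50 after the start, for 83 of the 132 genes (93 promoters). Printed here are 3 genes that were higher at low oxygen, LINC02348 (chr15:101614290-101614589, minus strand), LINC01356 (chr1:112850594-112850893, minus strand) and LINC02487 (chr6:167696240-167696539, minus strand), and 2 that were lower, LINC00472 (chr6:71420696-71420995, minus strand) and LINC02038 (chr3:193843960-193844259, minus strand). Each reads 5′ to 3′ on the gene's strand, and capitals mark ACGTG or GCGTG on either strand (CACGT or CACGC when read on the printed one).
LINC02348: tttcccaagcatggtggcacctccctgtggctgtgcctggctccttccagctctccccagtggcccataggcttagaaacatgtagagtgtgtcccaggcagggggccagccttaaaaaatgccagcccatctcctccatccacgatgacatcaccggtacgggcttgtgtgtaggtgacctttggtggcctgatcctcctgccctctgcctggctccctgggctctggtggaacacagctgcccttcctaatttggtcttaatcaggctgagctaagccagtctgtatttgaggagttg
LINC01356: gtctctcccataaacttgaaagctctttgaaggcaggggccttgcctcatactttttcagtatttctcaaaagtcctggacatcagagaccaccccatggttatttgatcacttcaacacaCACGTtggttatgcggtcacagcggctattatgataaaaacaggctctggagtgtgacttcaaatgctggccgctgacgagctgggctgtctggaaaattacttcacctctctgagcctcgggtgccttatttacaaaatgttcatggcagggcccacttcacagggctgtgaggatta
LINC02487: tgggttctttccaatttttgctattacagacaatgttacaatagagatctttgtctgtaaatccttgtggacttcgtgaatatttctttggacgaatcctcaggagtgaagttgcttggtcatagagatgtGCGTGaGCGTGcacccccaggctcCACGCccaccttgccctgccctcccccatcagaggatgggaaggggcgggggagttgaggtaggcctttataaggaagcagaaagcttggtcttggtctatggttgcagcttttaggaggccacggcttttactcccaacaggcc
LINC00472: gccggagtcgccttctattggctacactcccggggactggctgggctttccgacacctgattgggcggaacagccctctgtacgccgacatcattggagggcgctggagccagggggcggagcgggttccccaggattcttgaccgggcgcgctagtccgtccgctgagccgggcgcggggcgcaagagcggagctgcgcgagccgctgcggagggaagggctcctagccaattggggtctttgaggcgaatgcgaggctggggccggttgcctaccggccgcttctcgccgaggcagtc
LINC02038: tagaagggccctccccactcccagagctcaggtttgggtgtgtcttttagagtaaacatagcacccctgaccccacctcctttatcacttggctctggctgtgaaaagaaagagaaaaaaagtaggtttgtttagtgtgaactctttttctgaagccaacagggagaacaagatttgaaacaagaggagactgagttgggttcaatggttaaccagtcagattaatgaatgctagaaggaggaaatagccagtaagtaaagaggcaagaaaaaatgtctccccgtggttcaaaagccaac
The LINC01356 promoter holds 1 match and that of LINC02487 holds 3, while the other promoters shown hold 0. Over all 93 promoters 47.3% hold at least 1 match, against 48.4% of the 35116 promoters in the RefSeq table. With DMSO, 11 of 19 promoters of genes that were higher at low oxygen hold a match, as do 10 of 19 of those that were lower and 23 of 55 of those not called. The higher and lower sets include genes that met the count criterion through the condition in which they were high, so these counts are a description. A match of 5 letters is a description of the sequence, and promoters without one say only that these letters are not in this window.

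Depth differed between libraries, with totals of 3.30 to 49.25 M counts (M is 1000000) and the second lowest at 18.28 M, so 3 counts, the most that a count of 0 allows, equal 0.061 to 0.91 counts per 1000000 (CPM). Levels below are CPM after TMM scaling of the library size, with the SD over 4 libraries. The hepatoblastoma identity genes AFP, ALB, APOA1, TTR, GPC3, IGF2, HNF4A and FOXA2 were present in every library, whereas DLK1 had 8 counts in all. Of the 7 markers of other cell types, PTPRC (5 counts in all) and CD68 (9) were near 0, KRT7, DES and CDH5 had 53, 139 and 279, and PECAM1 and ACTA2 were readily detected. Their summed level was 65.2 to 70.4 CPM in normoxia DMSO, 71.8 to 81.2 in normoxia SLC-0111, 61.5 to 74.9 in hypoxia DMSO and 68.4 to 72.2 in hypoxia SLC-0111. Its part in the results was not tested.

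GENCODE types 105 of the genes as lincRNA, 13 as processed transcripts, 7 as antisense, 4 as transcribed unprocessed pseudogenes, 2 as bidirectional promoter transcripts and 1 as a transcribed unitary pseudogene. They lie on 24 chromosomes, with a median gene span of 15714 bases and a median of 3028 exonic bases. The word intergenic does not hold for all of them, since 24 gene bodies overlap a protein-coding gene. Exons of 46 genes overlap those of another gene, 16 on the same strand and 36 on the opposite strand. No source used here gives the strand setting of the counting, so reads of overlapping exons cannot be assigned with certainty. A further feature is a shared start: 15 genes begin within 1000 bases of the start of a protein-coding gene on the opposite strand. At the other end, 26 genes have no protein-coding gene within 100000 bases.

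Abundance was uneven. The 5 genes with the most counts held 38.5% of all counts of the 132, the 12 with the most held 54.1%, and the median gene had 1130 counts. LINC02381 (ENSG00000250742, chr12:54126098-54142493, plus strand, GRCh38), near the HOXC genes and with its gene body, but no exon, overlapping the DNA repair gene SMUG1, led with 131.4 ± 5.76 CPM in normoxia DMSO. Per kilobase of exon it also ranked first, at 69.2 CPM per kilobase over all 16 libraries, ahead of LINC01996 at 45.9 and LINC02413 at 18.4. LINC00665, with exons of 7201 bases, was the third by counts and the eighth per kilobase, at 6.07 CPM per kilobase.

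**Figure D1:**
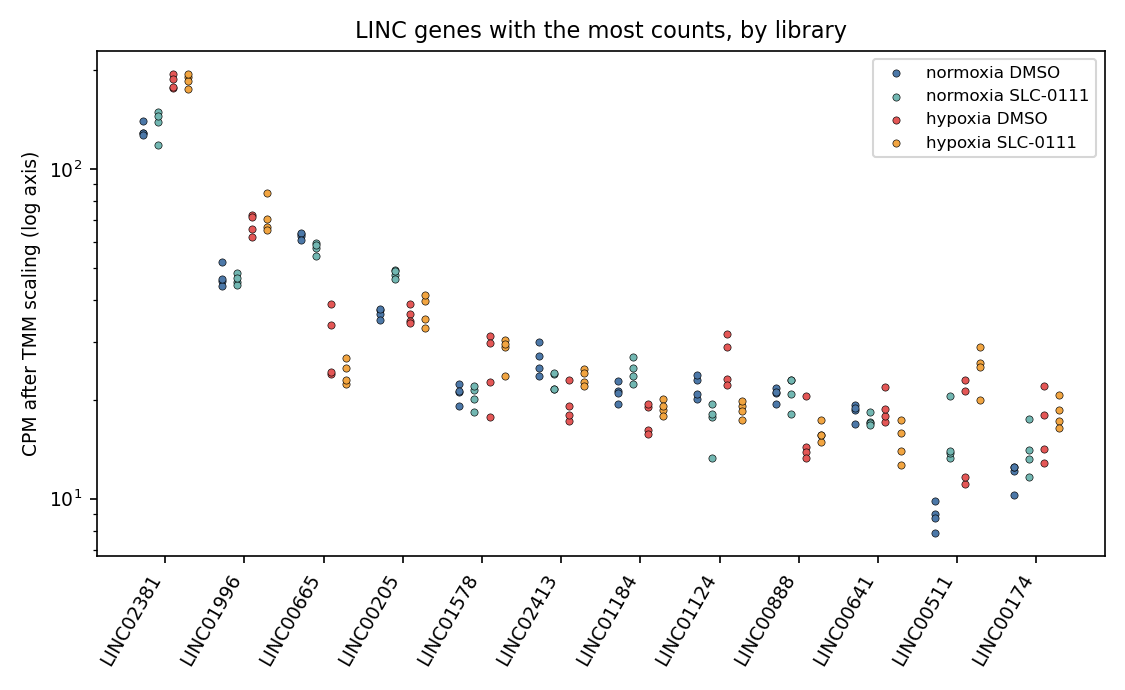
Levels of the 12 LINC genes with the most counts, 1 point per library, in CPM after TMM scaling on a log axis; colours mark the 4 groups of 4 libraries. LINC02381 sits highest, between 118.2 and 195.1 CPM, with its hypoxia libraries above its normoxia libraries, and LINC00665 shows the reverse order.

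Liver-enriched LINC genes were nearly absent. All 6 of a list of them (LINC01554, LINC01093, LINC01018, LINC00844, LINC00261 and LINC02027) were in the table with 4 to 60 counts each, so that 0 met the criterion. LINC00261, which lies beside FOXA2 and is a known companion of that endoderm factor, had 60 counts while FOXA2 stood at 75.4 CPM in normoxia DMSO. Of 16 LINC genes listed for their study in liver cancer, 14 were in the table and 7 met the criterion. Of 8 listed as sources of microproteins, 3 were in the table under these symbols and 1 met it, LINC00467.

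At low oxygen with DMSO, 30 of the 132 genes were called higher and 24 lower at an adjusted p under 0.05 (edgeR quasi-likelihood test, Benjamini-Hochberg over all 18385 genes tested). Of all genes tested, 25.0% were called higher and 24.8% lower. With SLC-0111 in both arms, 24 of the 132 were higher at low oxygen and 48 lower, where 23.9% of all genes were higher and 24.3% lower. As shares of the 132 these are 22.7% and 18.2% with DMSO, both below the background, and 18.2% and 36.4% with SLC-0111, the first below and the second above it. Among them are 8 of the 30 and 3 of the 24 with DMSO, and 7 of the 24 and 5 of the 48 with SLC-0111, that met the count criterion through the condition in which they were high. In bulk RNA of a culture, fewer cells of a kind and less RNA per cell cannot be told apart. The median log2 fold change of the 132 was 0.02 with DMSO and −0.23 with SLC-0111, beside 0.00 and −0.03 for all genes. The DMSO median changed sign, to −0.01, with scaling by library size alone and with no filter on low counts, where that of all genes was −0.03. With limma-voom it was −0.004, beside −0.005 for all genes. It was −0.07 to 0.04 with 1 library left out, the lowest without hypoxia DMSO replicate 1, and was −0.12 without hypoxia DMSO replicates 1 and 3. The SLC-0111 median was −0.13 with a covariate for the protein-coding share. Other long noncoding RNA genes with at least 400 counts had 253 higher and 162 lower of 1218 with DMSO, and 170 and 325 with SLC-0111.

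The 2 oxygen comparisons share no library. In both, 21 genes were higher and 21 were lower, and 0 were called in opposite directions. These are 15.9% and 15.9% of the 132, where 18.3% of all genes tested were higher in both, 17.0% lower in both and 0.403% opposite. Among those higher in both, LINC02348, LINC01291, LINC01293, LINC01356, LINC02487, LINC01719 and LINC00649 met the count criterion through hypoxia. Among those lower in both, LINC00472 and LINC01311 met it through normoxia. A further 9 higher and 3 lower genes (6.82% and 2.27%, beside 6.58% and 7.57% of all genes) passed with DMSO but missed the threshold with SLC-0111. Another 3 higher and 27 lower (2.27% and 20.5%, beside 5.43% and 7.12% of all genes) did the reverse. The difference between the arms was itself called for 4 of the 132 genes, given at the end. Changes of at least 2-fold were found for 12 higher and 3 lower genes with DMSO, and for 6 and 8 with SLC-0111. The DMSO counts are 9.09% and 2.27% of the 132, near the 8.14% and 1.75% of all genes tested, and those with SLC-0111 are 4.55% and 6.06%, beside 5.69% and 2.57%. These counts include genes that met the criterion through the condition in which they were high, so they are a description. Such rises were LINC02348, LINC01291, LINC01293, LINC01356 and LINC00649 in both arms and LINC02487 with DMSO. LINC00472 was such a fall in both arms, and LINC01311 and LINC01465 were such falls with SLC-0111. Of the 86 genes whose exons overlap no other gene, 21 were higher and 12 lower with DMSO, and 17 and 27 with SLC-0111. The 46 genes with such overlap had 9 and 12 with DMSO, and 7 and 21 with SLC-0111. Of all genes tested, 25.0% were higher and 24.8% lower with DMSO, and 23.9% and 24.3% with SLC-0111.

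**Figure D2:**
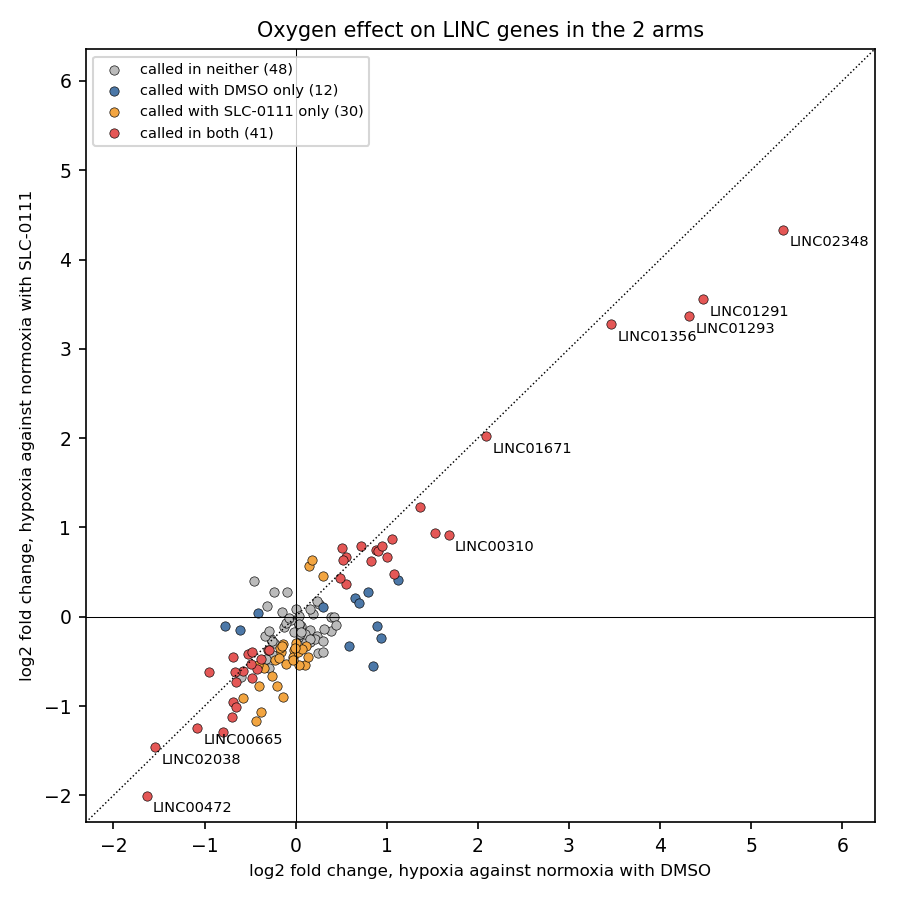
Fitted log2 fold change of hypoxia against normoxia for 131 LINC genes, with DMSO on the x axis and with SLC-0111 on the y axis; colours show in which arm a gene was called, and the dotted line marks equal values. LINC02348 lies farthest to the right at 5.35 and LINC00472 lowest at −2.00, and the 41 genes called in both arms lie in the quadrants of equal sign.

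LINC02348 (ENSG00000273585, chr15:101613676-101614339, minus strand), a gene of 2 exonic blocks with no known role, had the largest difference. In normoxia DMSO it had 9 counts in all, with 0, 0.192, 0.0963 and 0.0306 CPM in replicates 1 to 4. In hypoxia DMSO it stood at 2.54, 3.94, 3.57 and 3.77 CPM in replicates 1, 2, 3 and the unnumbered library. Every hypoxia library lay above every normoxia library, and hypoxia held 530 of its 550 counts, so it met the criterion through hypoxia and its oxygen values are a description. The ratio of group totals was 42.3 (95% interval 22.0 to 93.6, counting error only), and the fitted log2 fold change was 5.35 ± 0.36 (SE). With SLC-0111 it was 4.33 ± 0.36. Its upstream neighbour on the same strand, TM2D3, ends 7105 bases away and stood at 18.3 ± 0.894 CPM in normoxia DMSO and 19.4 ± 1.57 in hypoxia DMSO (log2 0.08 ± 0.08, adjusted p = 0.39). The promoter of LINC02348 printed above holds 0 matches to the hypoxia-inducible factor letters.

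LINC01291 (ENSG00000204792, chr2:74918148-74938418) and LINC01293 (ENSG00000230836, chr2:74940258-74942670) lie 1840 bases apart on the plus strand, and RefSeq gives LINC01293 as a synonym of LINC01291, so they are not independent examples. LINC01291 was at 0.217 ± 0.0544 CPM in normoxia DMSO and at 2.22, 6.32, 2.08 and 6.80 CPM in hypoxia DMSO replicates 1, 2, 3 and the unnumbered library. LINC01293 was at 0.152 ± 0.11 CPM and at 1.53, 3.69, 2.68 and 4.25 CPM in the same libraries. In both genes replicates 1 and 3 were the lowest of the 4, yet no hypoxia library fell to the normoxia range. Hypoxia held 1007 of the 1076 counts of LINC01291 and 593 of the 639 of LINC01293, so both met the criterion through hypoxia. Given as a description, the fitted log2 fold changes with DMSO were 4.47 ± 0.42 and 4.32 ± 0.36. Without replicates 1 and 3 they were 4.92 and 4.68. With SLC-0111 they were 3.56 ± 0.36 and 3.37 ± 0.32. The protein-coding gene that ends 24789 bases upstream of LINC01291 on the same strand is HK2, which encodes hexokinase 2, the first enzyme of glycolysis and a known target of hypoxia-inducible factor. HK2 rose from 18.8 ± 1.07 CPM in normoxia DMSO to 223.7 ± 54.8 in hypoxia DMSO (log2 3.58 ± 0.15, adjusted p = 3.51e-11). As an upstream gene it was added after its value was seen, and shared control with these LINC genes was not tested.

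LINC01356 (ENSG00000215866, chr1:112820170-112850643, minus strand) had 0.511, 0.614, 0.321 and 0.398 CPM in normoxia DMSO and 4.84, 5.50, 6.55 and 4.14 CPM in hypoxia DMSO. The groups did not overlap, and hypoxia held 943 of its 1043 counts, through which it met the criterion. As a description, the difference was log2 3.46 ± 0.20 with DMSO and 3.27 ± 0.20 with SLC-0111. It overlaps AL390729.1 on the opposite strand over 400 exonic bases. Its neighbour SLC16A1, the gene of the lactate transporter MCT1, ends 61204 bases upstream and was at 425.8 ± 10.9 CPM in normoxia DMSO and 434.3 ± 20.4 in hypoxia DMSO (log2 0.03 ± 0.05, adjusted p = 0.706). The printed promoter of LINC01356 holds a single match.

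LINC01671 (ENSG00000225431, chr21:42599280-42615058, minus strand) combined a rise at low oxygen with a fall under the compound. It was at 2.00, 2.15, 2.54 and 2.20 CPM in normoxia DMSO, and at 10.2, 9.13, 10.4 and 8.92 CPM in hypoxia DMSO. With SLC-0111 it was at 1.93, 1.26, 1.08 and 1.57 CPM in normoxia and 6.61, 5.68, 6.20 and 4.85 CPM in hypoxia. The groups did not overlap in any of these comparisons. Low oxygen raised it by log2 2.09 ± 0.14 with DMSO (adjusted p = 9.76e-12) and 2.03 ± 0.15 with SLC-0111 (adjusted p = 1.02e-10). The compound lowered it by log2 −0.66 ± 0.17 in normoxia (adjusted p = 0.00562) and −0.72 ± 0.12 in hypoxia (adjusted p = 0.000218). In normoxia that call was lost with a covariate for the protein-coding share (adjusted p = 0.111). PDE9A, a cyclic GMP phosphodiesterase gene that starts 38578 bases away on the opposite strand, rose at low oxygen by log2 0.64 ± 0.08 with DMSO (adjusted p = 3.72e-07). As an opposite-strand gene it was added after its value was seen, and shared control with LINC01671 was not tested.

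Smaller rises at low oxygen included LINC00310, downstream of the mitochondrial ribosomal gene MRPS6. In hypoxia DMSO it stood at 1.49, 4.81, 2.08 and 6.05 CPM, and replicates 1 and 3 again lay lowest, with replicate 1 inside the normoxia DMSO range of 0.938 to 1.56. Its log2 fold change was 1.68 ± 0.34 (adjusted p = 0.000517), and 2.14 without replicates 1 and 3. MRPS6 rose from 24.4 ± 0.729 to 44.2 ± 5.40 CPM (log2 0.85 ± 0.07, adjusted p = 1.07e-09). LINC02487, whose promoter holds 3 matches, had 363 of its 532 counts in hypoxia and a log2 value of 1.53 ± 0.26 with DMSO and 0.94 ± 0.22 with SLC-0111. LINC00649, which starts 446 bases from the ATP synthase subunit gene ATP5PO on the opposite strand and overlaps its exons, had 294 of its 428 counts in hypoxia and log2 values of 1.36 ± 0.23 and 1.23 ± 0.23. Both met the criterion through hypoxia, so these values are a description. LINC01488, also studied as CUPID1 at a breast cancer risk locus, rose from 2.63 ± 0.0608 to 5.43 ± 0.677 CPM (log2 1.06 ± 0.12, adjusted p = 6.96e-08). The 2 most abundant genes rose less than 2-fold, LINC02381 by log2 0.49 ± 0.06 and LINC01996 by 0.52 ± 0.07.

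**Figure D3:**
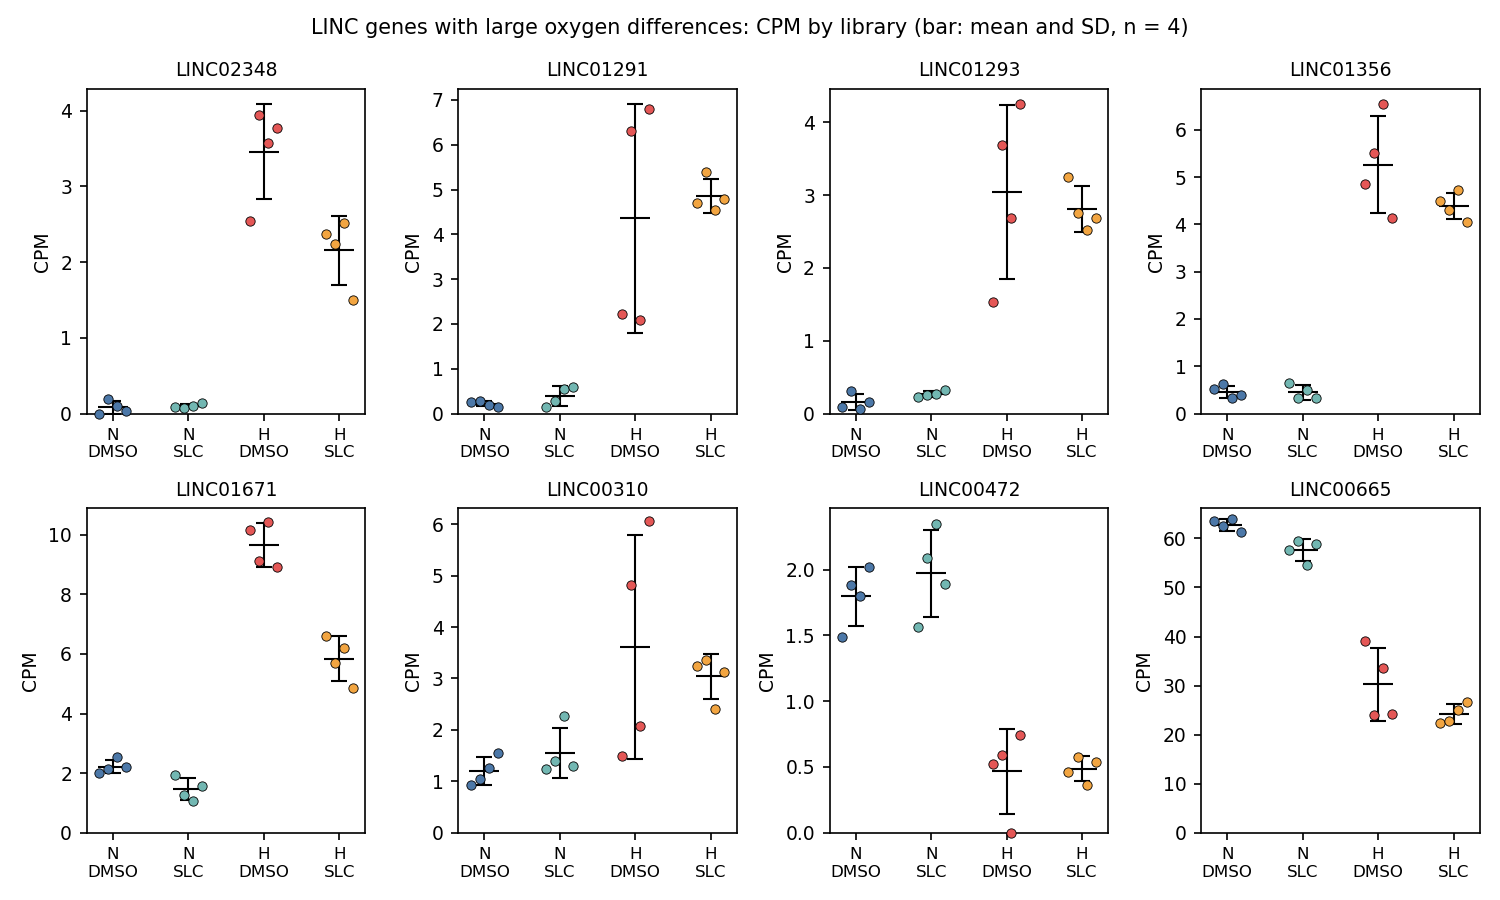
CPM of 8 LINC genes with large oxygen differences, 1 point per library, with the mean and SD of each group of 4; N and H stand for normoxia and hypoxia, SLC for SLC-0111, and each y axis starts at 0. LINC02348, LINC01291, LINC01293 and LINC01356 are below 1 CPM in every normoxia library, and the hypoxia DMSO points of LINC01291 and LINC00310 are split.

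Among the genes that fell, LINC00665 (ENSG00000232677, chr19:36313067-36331718, minus strand), studied in liver cancer, was the most abundant. It was at 63.5, 62.6, 64.0 and 61.2 CPM in normoxia DMSO and at 39.1, 24.0, 33.6 and 24.2 CPM in hypoxia DMSO. Here replicates 1 and 3 lay nearest to normoxia, and the groups did not overlap. The log2 fold change was −1.08 ± 0.12 with DMSO (adjusted p = 4.32e-07) and −1.24 ± 0.11 with SLC-0111 (adjusted p = 5.78e-08). ZFP14, a zinc finger gene that ends 2735 bases upstream on the same strand, moved the other way, from 7.88 ± 0.612 to 11.4 ± 0.557 CPM (log2 0.51 ± 0.08, adjusted p = 8.26e-06).

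LINC00472 (ENSG00000233237, chr6:71344344-71420769, minus strand), the host of MIR30A and MIR30C2, had the lowest fold at low oxygen. It was at 1.49, 1.88, 1.80 and 2.02 CPM in normoxia DMSO and at 0.525, 0.594, 0 and 0.743 CPM in hypoxia DMSO, where the 0 came from replicate 3, the shallowest library. The groups did not overlap, and normoxia held 428 of its 537 counts, through which it met the criterion. As a description, its value was log2 −1.64 ± 0.25 with DMSO and −2.00 ± 0.23 with SLC-0111. Its exons overlap AL136164.2 over 267 bases of the same strand. LINC02038, on chromosome 3, went from 5.27 ± 0.373 CPM to 1.65 ± 0.741 (log2 −1.54 ± 0.18, adjusted p = 1.58e-07), and by −1.46 ± 0.18 with SLC-0111. LINC01089, also called LIMT and known to be lost during EGF-driven migration, fell by log2 −0.69 ± 0.17 and −0.95 ± 0.16, but it overlaps exons of RHOF on its own strand. LINC01139, known as LINK-A and described in breast cancer as a stabiliser of HIF1A, fell by log2 −0.48 ± 0.20 with DMSO (adjusted p = 0.046) and −0.69 ± 0.17 with SLC-0111 (adjusted p = 0.00221).

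All 7 liver cancer LINC genes that met the criterion were called for oxygen in at least 1 arm, as were 84 of the 132 genes (63.6%) and 62.4% of all genes tested. LINC00665, LINC00472 and LINC01139 were lower in both arms, LINC00205, LINC00662 and LINC01134 passed as lower with SLC-0111 and missed the threshold with DMSO, and LINC00511 was higher in both. Of these, the difference between the arms was called for LINC00205. LINC00467, whose transcript is known to encode a peptide of the ATP synthase, rose with SLC-0111 by log2 0.57 ± 0.16 (adjusted p = 0.00497). It did not pass with DMSO, at 0.15 ± 0.18 (adjusted p = 0.516), and the difference between the arms was not called (adjusted p = 0.314).

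Nearest protein-coding genes went in either direction. With DMSO, of the 30 LINC genes that were higher at low oxygen, the nearest coding gene was higher for 11, lower for 7, not called for 7 and not tested for 5. Of the 24 that were lower, it was higher for 7, lower for 3, not called for 10 and not tested for 4. Of all protein-coding genes tested, 27.9% were higher and 30.6% lower. The 30 and the 24 include 8 and 3 genes that met the count criterion through the condition in which they were high. LINC01291 and LINC01293, which are not independent, are both among the 30, so these tallies are a description.

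In normoxia, SLC-0111 was followed by higher levels of 19 of the 132 genes and lower levels of 4. Of all genes tested, 12.4% were higher and 11.2% lower. None of the 23 calls reached 2-fold (0 in either direction), and few of all genes did, with 1.14% called higher and 0.299% lower at that size. The median log2 fold change was 0.09, beside 0.02 for all genes. It was 0.01 with scaling by library size alone, where that of all genes was −0.05. It was 0.04 with a covariate for the protein-coding share and 0.04 without normoxia SLC-0111 replicate 4. The count higher was 12 by library size alone, 9 with that covariate, 12 without normoxia DMSO replicate 2 and 11 without normoxia SLC-0111 replicate 4. Of all genes, 2271 were called higher in the main fit, and 1396, 2042, 1748 and 2005 in those settings, in that order. Normoxia SLC-0111 replicate 4 had the lowest protein-coding share, 80.6%. The share was 89.8% ± 0.816 in normoxia DMSO and 86.5% ± 4.12 in normoxia SLC-0111. Other long noncoding RNA genes had 121 higher and 34 lower of 1218.

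LINC00205 (ENSG00000223768, chr21:45288050-45297806, plus strand), which shares its start region with POFUT2, a protein O-fucosyltransferase gene 152 bases away on the opposite strand, was the most abundant of those called. It was at 37.5, 36.4, 34.9 and 37.5 CPM with DMSO and at 47.6, 46.3, 49.6 and 49.2 CPM with SLC-0111 in normoxia. All 4 treated libraries lay above all controls, at log2 0.40 ± 0.06 (adjusted p = 5.95e-05). POFUT2 was at 42.8 ± 1.22 and 44.6 ± 2.23 CPM (log2 0.06 ± 0.05, adjusted p = 0.496). In hypoxia LINC00205 was at 36.0 ± 2.21 CPM with DMSO and 37.3 ± 4.01 with SLC-0111 (adjusted p = 0.744), and the 2 effects differed by log2 −0.36 ± 0.09 (adjusted p = 0.022).

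LINC02323, LINC01488 and LINC00106 were higher with the compound in both oxygen conditions. LINC02323 (ENSG00000259230, chr14:102545254-102555826) went from 6.18, 5.37, 3.69 and 5.14 CPM to 7.17, 8.81, 8.71 and 8.93 CPM in normoxia, with no overlap (log2 0.74 ± 0.12, adjusted p = 1e-04). In hypoxia it went from 4.64, 3.66, 3.28 and 3.45 CPM to 6.09, 5.81, 5.77 and 6.54 CPM, again with no overlap (log2 0.64 ± 0.14, adjusted p = 0.00231). LINC02323 was lower at low oxygen, by log2 −0.38 ± 0.14 with DMSO. LINC01488 rose by log2 0.60 ± 0.12 in normoxia (adjusted p = 0.000426) and 0.41 ± 0.11 in hypoxia (adjusted p = 0.00769), where the call was lost without hypoxia DMSO replicates 1 and 3 (log2 0.30, adjusted p = 0.0686). Low oxygen raised it as well. LINC00106, a pseudoautosomal gene, rose by 0.44 ± 0.11 (adjusted p = 0.00478) and 0.40 ± 0.13 (adjusted p = 0.0322), and its hypoxia call was lost in 10 of the alternatives.

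LINC00511, a long gene studied in several cancers, was higher with the compound in normoxia, at 8.99, 8.75, 7.86 and 9.85 CPM with DMSO and 13.3, 13.7, 20.5 and 14.0 CPM with SLC-0111. The groups did not overlap, but replicate 4 stood apart, and without it the log2 value went from 0.81 ± 0.23 (adjusted p = 0.02) to 0.62 (adjusted p = 0.0805). The call was also lost with a covariate for the protein-coding share (log2 0.57, adjusted p = 0.159) and with no filter on low counts (adjusted p = 0.0554). It was lost as well without normoxia DMSO replicate 2 or 3 (adjusted p = 0.0504 and 0.0585). Low oxygen raised LINC00511 by log2 1.00 ± 0.24 (adjusted p = 0.0029), with hypoxia DMSO at 11.1, 22.9, 11.6 and 21.3 CPM. LINC00886 had 1.096 ± 0.157 CPM with DMSO and 1.91 ± 0.366 CPM with the compound in normoxia, a rise of log2 0.83 ± 0.20 (adjusted p = 0.00426). That call was lost with a covariate for the protein-coding share (log2 0.58, adjusted p = 0.0765). Of 14 named normoxia results, 4 held in every alternative, those of LINC02323, LINC01488, LINC02525 and LINC01836. LINC02525 went from 1.321, 0.6525, 1.604 and 1.376 CPM to 2.481, 2.374, 1.926 and 2.025 CPM with the compound. LINC01836 went from 3.196, 2.879, 2.31 and 2.935 CPM to 3.813, 4.711, 4.248 and 3.912 CPM.

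**Figure D4:**
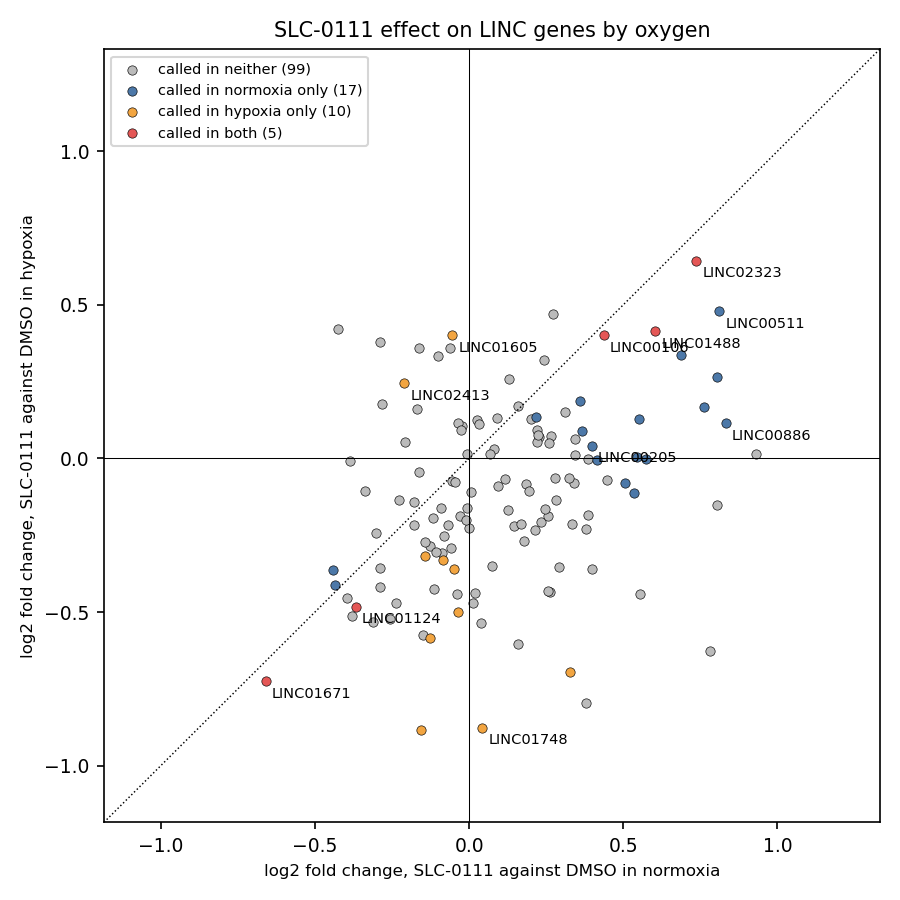
Fitted log2 fold change of SLC-0111 against DMSO for 131 LINC genes, in normoxia on the x axis and in hypoxia on the y axis; colours show where a gene was called, and the dotted line marks equal values. All 5 genes called in both conditions have equal signs, and no called gene reaches a value of 1 in size.

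In hypoxia, 5 of the 132 genes were higher with SLC-0111 and 10 lower, where 9.14% of all genes were higher and 7.11% lower. The count lower was 6 without hypoxia DMSO replicates 1 and 3, and 6 without hypoxia SLC-0111 replicate 2 or 3. Of all genes, 1307 were called lower in the main fit, and 1308, 930 and 950 in those settings, in that order. The count higher was 3 without hypoxia DMSO replicate 2 or the unnumbered library, or without hypoxia SLC-0111 replicate 2 or 4. Here 1681 of all genes were called higher in the main fit, and 1707, 1650, 1311 and 1836 in those settings, in that order. The median log2 fold change was −0.11, beside −0.01 for all genes, and was −0.05 without hypoxia DMSO replicate 1. By library size alone it was −0.17, beside −0.07 for all genes. Other long noncoding RNA genes had 26 higher and 91 lower. LINC01124 and LINC01671 were lower in both oxygen conditions. LINC01124 (ENSG00000222033, chr2:170712451-170714567, minus strand), a single-exon gene 784 bases from the start of SP5, a WNT-responsive transcription factor gene, was at 31.6, 23.1, 28.9 and 22.1 CPM with DMSO and at 19.1, 17.4, 19.8 and 18.4 CPM with SLC-0111 in hypoxia. No library overlapped, at log2 −0.48 ± 0.11 (adjusted p = 0.00495), or −0.28 without hypoxia DMSO replicates 1 and 3 (adjusted p = 0.0842). In normoxia its value was −0.37 ± 0.11 (adjusted p = 0.0183), and −0.25 without normoxia SLC-0111 replicate 4 (adjusted p = 0.0725). The normoxia call was also lost without normoxia DMSO replicate 1 or 3 (adjusted p = 0.0543 and 0.062). With a covariate for the protein-coding share it was lost too (log2 −0.17, adjusted p = 0.225). SP5 was at 180 ± 24.2 CPM with DMSO and 196.3 ± 25.5 with SLC-0111 in hypoxia (log2 0.11 ± 0.13, adjusted p = 0.615).

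LINC02348 was lower with the compound in hypoxia, at 2.37, 2.25, 2.52 and 1.50 CPM (log2 −0.70 ± 0.22, adjusted p = 0.0318). All of these lay below the lowest hypoxia DMSO library, at 2.54 CPM. That call was lost without hypoxia DMSO replicate 2 or the unnumbered library, and without hypoxia SLC-0111 replicate 2 or 4 (adjusted p = 0.0637 to 0.129). In the numbered libraries it was lost with a replicate block (log2 −0.49, adjusted p = 0.143) and without one (log2 −0.64, adjusted p = 0.0967). LINC01291, LINC01293 and LINC01356 did not pass there, at log2 0.01 ± 0.26, −0.15 ± 0.23 and −0.20 ± 0.15. LINC01465, which overlaps the let-7i gene MIRLET7I, fell by log2 −0.88 ± 0.29 (adjusted p = 0.0409) and was at 0 in hypoxia DMSO replicate 3. Its call was lost in 9 of the alternatives.

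**Figure D5:**
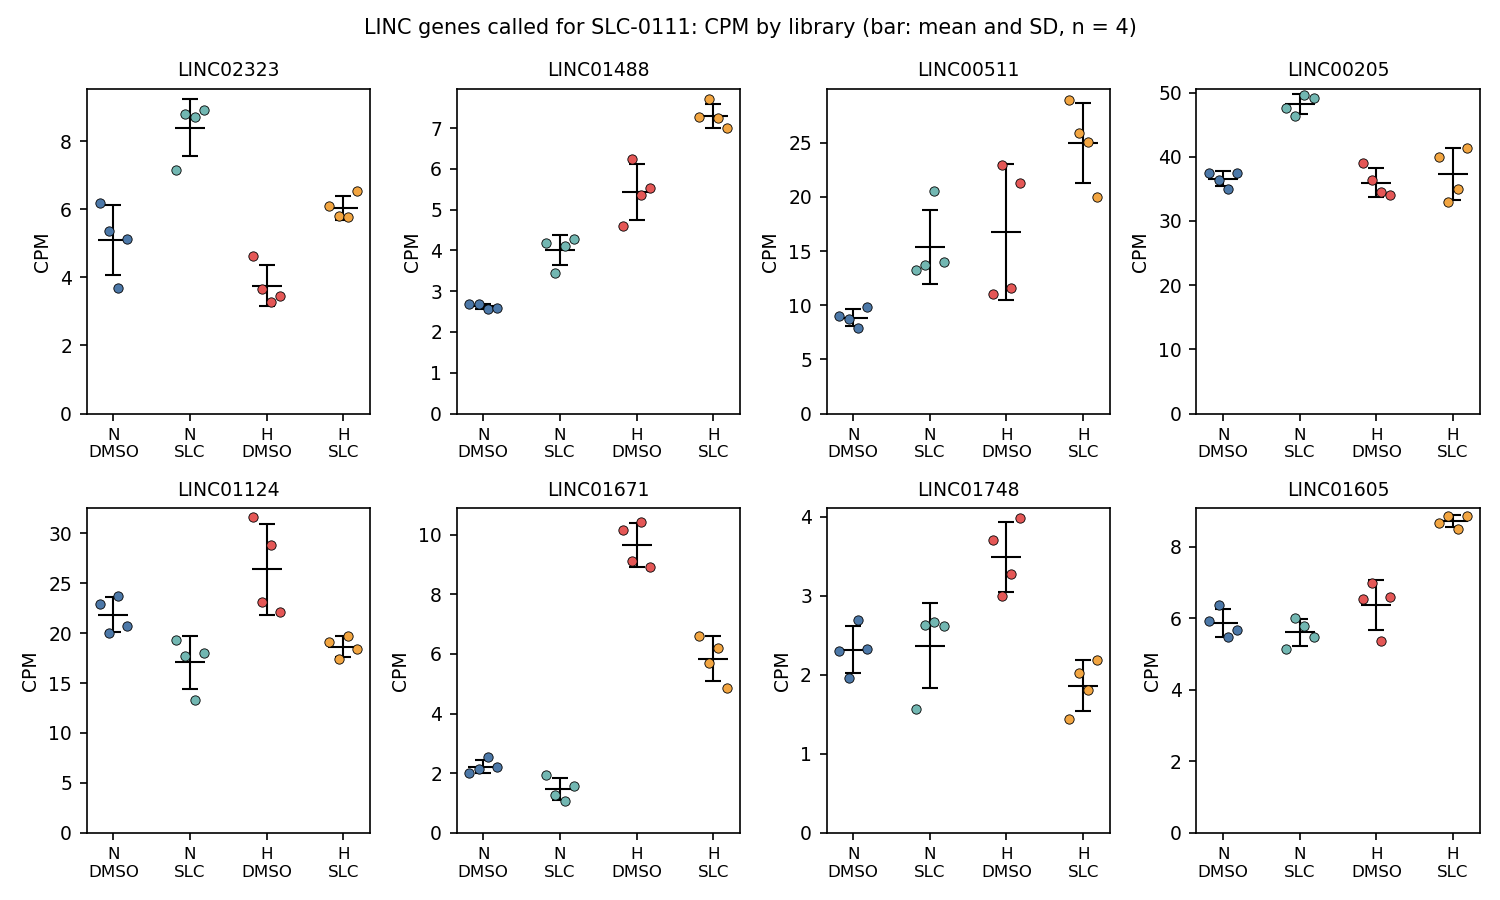
CPM of 8 LINC genes called for SLC-0111 or for the difference of its effects, 1 point per library, with the mean and SD of each group of 4; N and H stand for normoxia and hypoxia, SLC for SLC-0111, and each y axis starts at 0. LINC00205 is raised in normoxia SLC-0111 alone, at 46.3 to 49.6 CPM, and LINC01605 in hypoxia SLC-0111, at 8.50 to 8.86 CPM.

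The effect of SLC-0111 differed between the oxygen conditions for 4 genes, 2 with a higher value in hypoxia and 2 with a lower one, where 2.87% of all genes were called in the first direction and 3.13% in the second. LINC01748 was at 2.32 ± 0.301 and 2.37 ± 0.538 CPM in normoxia with DMSO and SLC-0111. In hypoxia it was at 3.71, 3.00, 3.28 and 3.98 CPM with DMSO and 1.45, 2.02, 1.80 and 2.19 CPM with SLC-0111, with no overlap. Its effects differed by log2 −0.92 ± 0.24 (adjusted p = 0.0253). LINC01605 was at 5.86 ± 0.386 and 5.60 ± 0.373 CPM in normoxia and 6.36 ± 0.697 and 8.72 ± 0.166 CPM in hypoxia, a difference of log2 0.46 ± 0.12 (adjusted p = 0.0276). LINC02413 was at 26.4 ± 2.77 and 22.8 ± 1.45 CPM in normoxia and 19.3 ± 2.48 and 23.3 ± 1.31 CPM in hypoxia, a difference of log2 0.45 ± 0.12 (adjusted p = 0.0201), and it overlaps AC138123.1 on the opposite strand. Each of these 4 calls was lost when some single library was left out. Below the calls, 103 of the 132 genes had a value under 0, with a median of log2 −0.20 beside −0.02 for all genes. The median was −0.19 by library size alone and −0.13 without hypoxia DMSO replicates 1 and 3, and it was −0.23 in the other long noncoding RNA genes. Of the 132 genes, 91 were called in at least 1 of the 4 single comparisons (68.9%, beside 67.9% of all genes tested) and 41 in none.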

How the data were processed

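The samples were 16 total RNA libraries of HUH6 cells in 4 groups of 4. The deposited table holds raw counts of reads per gene. Per the submitters' processing notes, the authors used HISAT2 (also written HISAT), HTSeq, MultiQC 1.10.1 and edgeR 3.4.0 with GRCh38. The strand setting and the versions of aligner and counter were not given in the sources used here. All identifiers matched GENCODE release 29 by start, end and strand, which gave symbols, types and coordinates.

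The test was edgeR's (4.0.16, R 4.3.3), with filterByExpr (18385 genes), TMM scaling, robust quasi-likelihood fit with 1 mean per group (12 residual degrees of freedom), Benjamini-Hochberg over all genes tested, called under 0.05. SE was taken as the size of the log2 fold change over the root of the F statistic. The fit was tested on simulated data. A count of 0 allows up to 3 reads, and intervals cover counting error only. No library was a copy of another (chi-square per degree of freedom 2.42 to 83.7 between libraries of a group).

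The 132 genes and the lists (liver-enriched, liver cancer and microprotein LINC genes, hepatoblastoma identity, other cell types) were chosen with earlier results of these data known. Named were the 12 genes with the most counts, up to 10 called rises and 10 falls per single comparison at 0.5 CPM or more, up to 6 each way for the difference, the genes at the edge of the criterion, list entries and nearest coding genes. Upstream and opposite-strand coding genes were added after their values were seen. A Y-linked gene is counted but not shown. Alternatives were RLE scaling, library size alone, 2 other filters, DESeq2 1.42.0, limma-voom (limma 3.58.1), only the groups compared, the protein-coding share as a covariate, other count criteria (200 and 1600), a replicate block, and each library left out.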

Additional observations from a re-analysis of the deposited data

Results flagged for a closer look

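Of 196 groups of 4 libraries examined over the 49 named genes shown, 14 held a library far from the other 3, and chance gives about 1 in 20. In normoxia DMSO these were LINC02381 at 139.9 CPM in replicate 1 (the others 127.2 to 129.3), LINC00174 at 10.27 in replicate 3 (12.14 to 12.51) and LINC02487 at 0.9375 in replicate 1 (0.4171 to 0.4989). In normoxia SLC-0111 they were LINC00511 at 20.5 CPM and LINC00310 at 2.269 in replicate 4, and LINC02323 at 7.167, LINC01748 at 1.562 and LINC00852 at 1.332 in replicate 1. In hypoxia DMSO all 3 were in replicate 3, the shallowest library, with LINC00888 at 20.55 CPM, LINC00862 at 2.084 and LINC01465 at 0. In hypoxia SLC-0111 they were LINC01355 at 4.412 CPM in replicate 4, and LINC00479 at 1.802 and LINC01814 at 1.874 in replicate 3.

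The effect of SLC-0111 differed between hypoxia and normoxia by a test of the difference itself (edgeR, adjusted over all genes) for LINC00205 (log2 −0.36), LINC01748 (−0.92), LINC01605 (0.46) and LINC02413 (0.45).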

How the results depend on the processing

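For oxygen with DMSO, leaving out 1 library gave 28 to 31 LINC genes higher and 16 to 27 lower, and with SLC-0111 21 to 25 and 36 to 52. Of all genes, 4021 to 5027 were higher and 3843 to 4716 lower with DMSO, and 4031 to 4307 and 3617 to 4401 with SLC-0111. With at least 1600 counts as the criterion, which leaves fewer genes, the counts were 12 and 14 with DMSO and 12 and 21 with SLC-0111. For SLC-0111 in normoxia (19 higher, 4 lower) the counts were 12 and 7 by library size alone, 9 higher when the protein-coding share was a covariate, 9 lower with only the groups compared, 9 lower with the replicate block, 9 and 2 at 1600 counts, and 11 to 20 and 1 to 4 without 1 library. The 1 lower came without normoxia DMSO replicate 3, and 2 without replicate 1. For SLC-0111 in hypoxia (5 and 10) they were 3 higher by library size alone, 3 and 6 with only the groups compared, 3 higher in numbered libraries without a block, 17 lower with the covariate, 6 lower without hypoxia DMSO replicates 1 and 3, 5 lower at 1600 counts, and 3 to 5 and 6 to 15 without 1 library. For the difference (2 and 2) they were 1 and 4 with no filter, 1 lower by library size alone, 1 and 7 with the replicate block, 0 and 1 in numbered libraries without a block, 6 and 7 without hypoxia DMSO replicates 1 and 3, 1 lower at 1600 counts, and 0 to 4 and 0 to 6 without 1 library. All-gene calls also moved. For SLC-0111 in normoxia they went from 2271 higher and 2067 lower to 1396 and 3141 by library size alone. They were 2042 higher with the covariate and 2793 lower with only the groups compared. In hypoxia they went from 1681 and 1307 to 1115 and 857 with only the groups compared, and 1631 lower with the covariate. For the difference they went from 527 and 575 to 814 and 529 with no filter. Without hypoxia DMSO replicates 1 and 3 they were 1716 and 1237. The causes were not tested. Fits of numbered libraries and without hypoxia DMSO replicates 1 and 3 were chosen after seeing the data. The replicate numbers were not taken as pairing, since the labels do not say that a number is shared between groups. Libraries of equal number correlated at −0.03 to 0.351 in their deviations from the group means, with 0.28 and 0.351 in replicate 4. In numbered libraries, 1092 of all genes were higher and 789 lower for the difference with a replicate block, and 294 and 330 without it. Whether a number marks shared handling was not tested. Of 72 results for single genes, 43 held in every alternative run on them, 29 lost the call in at least 1, and 0 reversed, with 35 of 39 oxygen results, 8 of 29 compound results and 0 of 4 differences held throughout. The oxygen results include those of LINC02348, LINC01291, LINC01293, LINC01356, LINC02487, LINC00649, LINC00472, LINC01311, LINC01091 and LINC01465. These genes met the count criterion through the condition in which they were high, so the oxygen share is a description. Library size alone moved the median of all genes in normoxia SLC-0111 from 0.02 to −0.05. Depth limits the low genes, since 3 counts equal 0.91 CPM in hypoxia DMSO replicate 3.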
